A study of Homo sapiens with 18 samples.

Results

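The comparison described here set the tamoxifen response of 2 lines of RWPE1 cells side by side. The activating line carries a construct with the VP64 activation domain. The neutral line carries a construct with the same DNA-binding domain and no effector. The comparison is the difference between 2 tamoxifen effects, that of the activating line minus that of the neutral line. It was tested gene by gene as an interaction. It rests on 12 of the 18 RNA-seq libraries, chosen by construct, with 3 biological replicates in each of 4 groups. The 6 libraries of a repressive line entered the estimate of the spread and were also used to look up the same genes in a further line. Of 5816 gene rows tested, 36 had an adjusted p under 0.05 in the interaction, which is 0.619%. The tamoxifen effect was higher in the activating line at LTBR, a TNF family receptor gene whose exons overlap the sodium channel gene SCNN1A. It was also higher there at the transcription factor gene CEBPD. It was lower in the activating line at the stress-response genes CEBPB and NUPR1, at the linker histone H1F0 and at DEAF1. It was also lower at the overlapping rows of BEST1 and of FTH1, the ferritin heavy chain gene.

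RWPE1 is an established line of benign human prostate epithelium. Each line carried 1 lentiviral construct, which joined the DNA-binding domain of the androgen receptor to ERT2, a mutated oestrogen receptor domain that moves into the nucleus upon tamoxifen, and was kept under blasticidin selection. Every construct carries an epitope tag. The neutral construct (3X) has no effector, the activating construct carries VP64 and the repressive construct carries KRAB. The neutral and activating lines each received ethanol vehicle or tamoxifen for 48 h. Tamoxifen was given at 1.5 uM by the treatment label of each sample and at 1.25 uM by its protocol text. Each construct was present in 1 line, so the effector and any other difference between the lines cannot be told apart. The replicates are labelled biological, but separate cultures are not named, and the p-values measure the spread between these samples, which may be technical.

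The androgen receptor binds DNA as a dimer at androgen response elements, inverted repeats of a short motif set apart by a spacer, and the glucocorticoid receptor recognises closely related elements. VP64 is a string of copies of a viral activation motif that recruits coactivators and the transcription machinery. KRAB recruits a corepressor and silencing enzymes. Prostate epithelium contains basal cells, marked by keratins such as KRT5 and KRT14, and luminal secretory cells, marked by kallikreins such as KLK3. Cells under amino acid shortage or protein folding stress turn on the integrated stress response, whose transcription factors include ATF4, ATF5, CEBPB and DDIT3.

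Total counts of the 12 libraries lay between 680601 and 770000 (whole-number total of salmon's estimated counts), and 3 counts, taken as the limit that a count of 0 allows, corresponded to 3.90 to 4.41 CPM (counts scaled to a common library total). All 9 epithelial line markers had counts, and their summed level was 2739 to 3701 CPM. Of 6 mesenchymal markers 4 were at 0, and of 5 blood cell markers 4 were at 0. The levels were uneven, with 33 counts over the 12 libraries at the epithelial marker EPCAM and 1107 at the mesenchymal marker VIM. The basal keratins KRT5 and KRT14 had 11617 and 7391 counts, and KRT8, a keratin of the luminal list, had 7881. The luminal genes KLK3 and KLK2 had 0 counts in all 12 libraries, so these secretory genes were not detected in their own rows. Such limits cover counting error only.

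The interaction was higher than 0 at 21 of the 36 called rows (0.361% of all rows tested) and lower at 15 (0.258%). Only 1419 of the 5816 rows received an adjusted p, and the rest could not be called. The median difference over all tested rows was -0.01 on the log2 scale. An absolute log2 difference above 1 was seen at 12 called rows, and 431 rows had an unadjusted p under 0.05. Of the 31 called rows that could be matched to the annotation, 28 (90.3%) had exons opposite another gene, compared with 67.9% of matched rows tested. The strandedness setting used in counting is not stated in the sources used here. Which of the 2 genes the counts at such a row come from was not tested, and partners are named with the rows for this reason. The counts of a row and its partner were often unequal over the 12 libraries. CTD-2636A23.2 had 4671 and its partner HMGCS1 22, and RP11-498C9.13 had 3930 and its partner PYCR1 67. The reverse was seen at SLC46A1, with 760 counts beside 6142 at its partner SARM1. H1F0, CEBPD and NUPR1 had no such partner. SE stands for the standard error of a log2 difference, and the values per library are normalized counts, that is, counts divided by the size factor of each library.

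**Figure D1:**
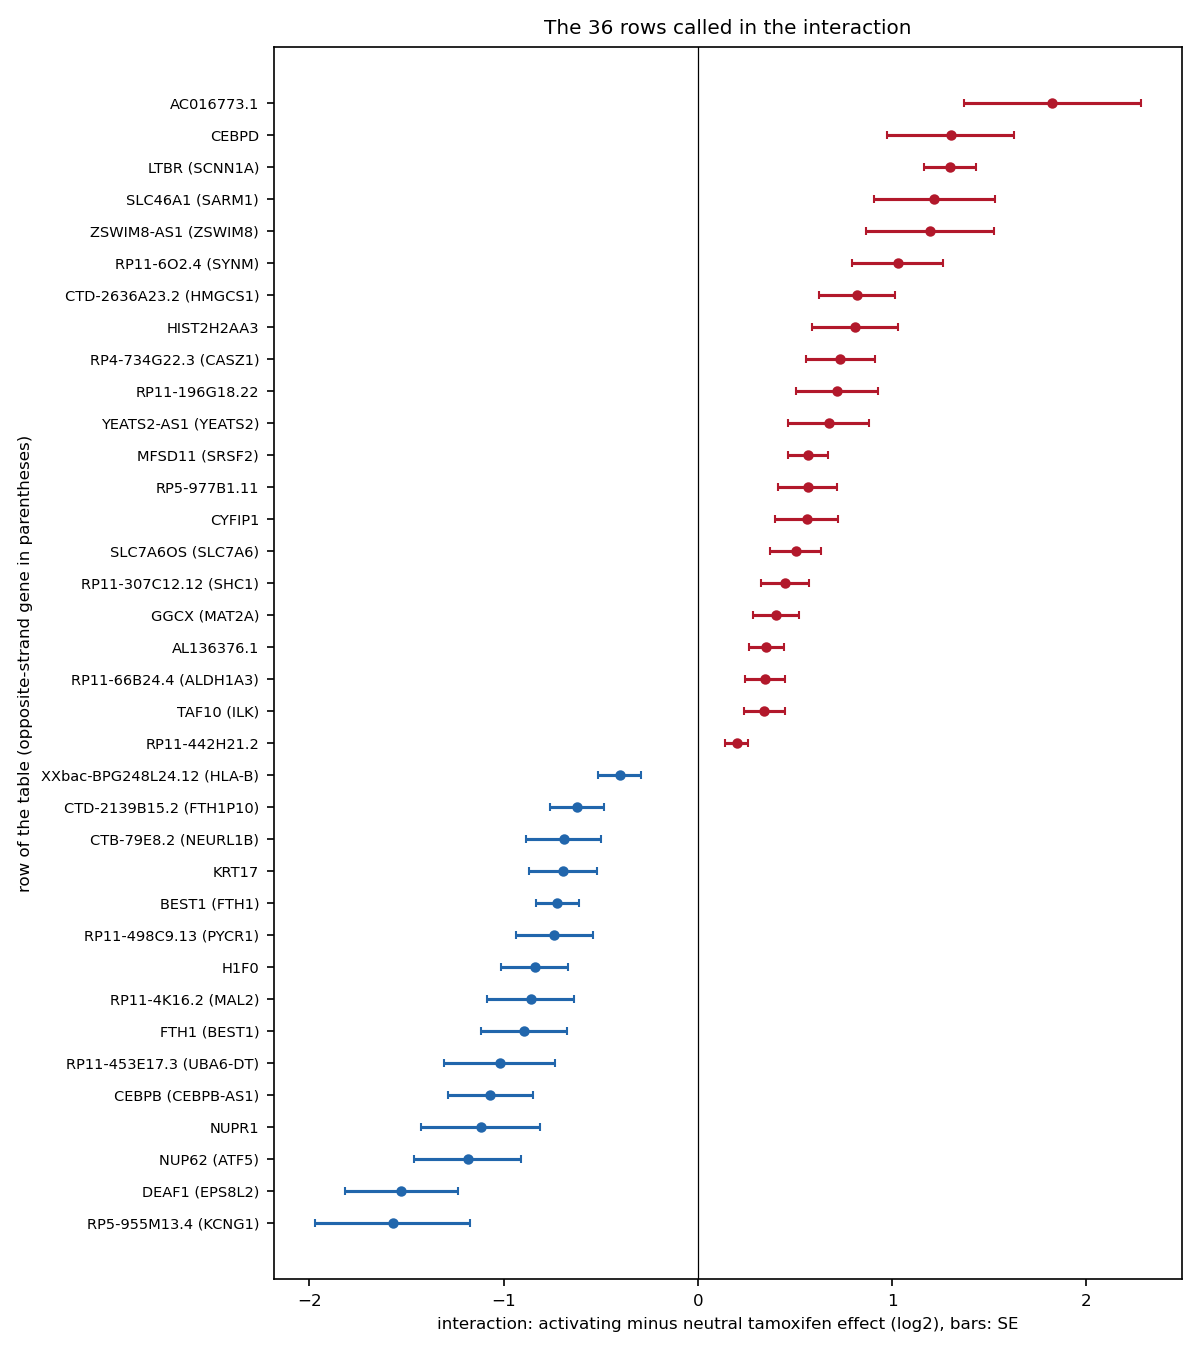
Log2 interaction with its standard error (horizontal axis) for each of the 36 called gene rows (vertical axis, ordered by value). The 21 higher rows run from 0.20 to 1.82 and the 15 lower rows from -1.57 to -0.40.

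The smallest adjusted p belonged to LTBR, the lymphotoxin-beta receptor of the TNF receptor family, which signals to NF-kB. Its row (GRCh37 chr12:6484211-6500737, plus strand) overlaps exons of SCNN1A, the alpha subunit of the epithelial sodium channel. The LTBR row held 549.6, 493 and 492 normalized counts in the neutral line with vehicle, 296, 300.1 and 302 with tamoxifen, 519, 537 and 529 in the activating line with vehicle and 822, 719 and 742 with tamoxifen. The vehicle groups overlapped, whereas the tamoxifen groups lay apart, below vehicle in the neutral line and above vehicle in the activating line. The difference of the effects was 1.30 (SE 0.14, DESeq2 adjusted p = 1.04e-18). Tamoxifen raised the row by 0.53 in the activating line and the neutral effect was -0.77, each past the threshold. The SCNN1A row itself averaged only 11.02 normalized counts, with a difference of 2.77 (SE 1.09) and no adjusted p after the filter on low counts.

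A sequence of the inverted-repeat type lies within introns of both LTBR and SCNN1A. Others lie near the starts of further called rows or of their opposite-strand partners. Examples are shown because the DNA-binding domain common to the constructs recognises elements of this type. The motif searched was GNACANNNTGTNC, which reads the same on both strands, and the window was 10 kb on either side of the annotated start. Capitals mark the motif, with 8 reference bases on each side, read 5′ to 3′ on the plus strand of GRCh37. The LTBR match lies 1280 bases downstream of the LTBR start and 1405 bases downstream of the SCNN1A start. The SYNM match lies at -1092 bases from the SYNM start, that is upstream of it, in an intron of SYNM-AS1. The called row opposite SYNM, RP11-6O2.4, had 0 matches within 10 kb of its own start. The FTH1 match lies between genes at -3972 bases from the FTH1 start, and the NUPR1 match at -6560 bases from the NUPR1 start.
LTBR and SCNN1A, chr12:6485477-6485505: gggccctaGGACATTCTGTTCttttttac
SYNM, chr15:99637314-99637342: gaatcataGAACACGGTGTTCctagggga
FTH1, chr11:61739064-61739092: agactgagGGACAGCTTGTGCtgtagaag
NUPR1, chr16:28556875-28556903: aggttgcaGAACATCATGTACactacaaa

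A match was a common feature. It was found at 9 of the 31 called rows with a known position (29.0%) and at 1259 of 5619 tested rows (22.4%). Among the opposite-strand partners it was found at 5 of 28 (17.9%), compared with 866 of 3828 (22.6%) over all tested rows with a partner. The strict form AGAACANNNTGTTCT was found at 0 of 31 called rows and at 19 of 5619 tested rows (0.338%). The letters in these windows were compared with the reference genome only, and no binding was measured.

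CEBPD, a bZIP transcription factor induced by glucocorticoids and cytokines, had no opposite-strand partner. The CEBPD row held 131, 112 and 138 normalized counts in the neutral line with vehicle, 73.2, 65.3 and 67.2 with tamoxifen, 151, 65.7 and 138 in the activating line with vehicle and 141, 189.8 and 141 with tamoxifen. All 3 neutral tamoxifen libraries lay below the neutral vehicle libraries. In the activating line the groups overlapped, since vehicle replicate 1 (151) lay above tamoxifen replicates 1 and 3 (141 each). Vehicle replicate 2 (65.7) was the lowest library of that line. The difference was 1.30 (SE 0.33, DESeq2 adjusted p = 0.00658), and the tamoxifen effects were 0.41 in the activating and -0.89 in the neutral line, of which the neutral one passed the threshold. In the repressive line the tamoxifen effect on CEBPD was -2.28. FKBP5, a glucocorticoid and androgen target, had a difference of 1.42 (SE 0.52) with no adjusted p at its mean of 35.5 normalized counts.

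The largest positive difference was at AC016773.1, whose identifier had no match in the annotation. The AC016773.1 row held 33.3, 67.0 and 32.5 normalized counts in the neutral line with vehicle, 33.7, 38.0 and 12.2 with tamoxifen, 74.5, 81.1 and 71.5 in the activating line with vehicle and 176, 189 and 144 with tamoxifen. The activating tamoxifen libraries were the highest of the 4 groups, and the neutral groups overlapped. The difference was 1.82 (SE 0.45, DESeq2 adjusted p = 0.00644), with effects of 1.16 in the activating and -0.66 in the neutral line. The activating vehicle libraries already lay above the neutral vehicle libraries at this row. The vehicle difference was 0.77 (SE 0.32) and received no adjusted p.

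SLC46A1, the proton-coupled folate transporter, overlaps SARM1, an NAD-cleaving enzyme of axon degeneration. The SLC46A1 row held 71.8, 83.2 and 68.0 normalized counts in the neutral line with vehicle, 41.4, 54.6 and 49.9 with tamoxifen, 45.1, 51.2 and 48.9 in the activating line with vehicle and 75.0, 73.5 and 71.9 with tamoxifen. The tamoxifen libraries lay below the vehicle libraries in the neutral line and above them in the activating line, without overlap. The difference was 1.22 (SE 0.31, DESeq2 adjusted p = 0.00718), from effects of 0.60 in the activating and -0.61 in the neutral line. Neither tamoxifen effect alone passed the threshold. SARM1 had 494 normalized counts on average and a difference of 0.34 (SE 0.14), which was not called.

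ZSWIM8-AS1 lies opposite ZSWIM8, an adaptor of a ubiquitin ligase that acts in microRNA decay. The ZSWIM8-AS1 row held 183, 129 and 162 normalized counts in the neutral line with vehicle, 127, 66.2 and 94.6 with tamoxifen, 101, 112 and 90.5 in the activating line with vehicle and 133, 101 and 189 with tamoxifen. The tamoxifen groups of both lines overlapped, and the vehicle libraries were higher in the neutral line. Its difference was 1.20 (SE 0.33, DESeq2 adjusted p = 0.0151), from effects of 0.48 in the activating and -0.72 in the neutral line. RP4-734G22.3 lies opposite CASZ1, a zinc-finger transcription factor. The RP4-734G22.3 row held 477, 506 and 514 normalized counts in the neutral line with vehicle, 287, 283 and 309 with tamoxifen, 454, 582 and 534 in the activating line with vehicle and 609, 508 and 416 with tamoxifen. The row fell in the neutral line and showed overlapping groups in the activating line. Its difference was 0.73 (SE 0.18, DESeq2 adjusted p = 0.00391), from effects of -0.03 in the activating and -0.77 in the neutral line.

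RP11-6O2.4 lies opposite SYNM, which encodes the intermediate filament protein synemin, and 79.1% of its exonic bases overlap SYNM exons. The RP11-6O2.4 row held 125, 119 and 162 normalized counts in the neutral line with vehicle, 145, 116 and 147 with tamoxifen, 219.9, 182 and 203 in the activating line with vehicle and 355, 403 and 482 with tamoxifen. The activating line rose with tamoxifen while the neutral groups overlapped, and the activating vehicle libraries already lay above all neutral libraries. The difference was 1.03 (SE 0.23, DESeq2 adjusted p = 0.00212), from effects of 1.03 in the activating and 0.01 in the neutral line. SYNM itself had 62 counts over the 12 libraries and did not pass the filter. HIST2H2AA3, a histone H2A gene, has a near-identical copy and its counts are uncertain for this reason. The HIST2H2AA3 row held 149, 147 and 159 normalized counts in the neutral line with vehicle, 138, 148 and 132 with tamoxifen, 124, 175 and 167 in the activating line with vehicle and 246, 224 and 280.1 with tamoxifen. The activating tamoxifen libraries lay above the rest, and the other groups overlapped. The difference was 0.81 (SE 0.22, DESeq2 adjusted p = 0.0151), from effects of 0.69 in the activating and -0.12 in the neutral line.

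CTD-2636A23.2 lies opposite HMGCS1, which makes the HMG-CoA used in the mevalonate pathway of cholesterol synthesis, and all of its exonic bases overlap HMGCS1. The CTD-2636A23.2 row held 282, 292 and 275 normalized counts in the neutral line with vehicle, 524, 462 and 379 with tamoxifen, 216, 184 and 196 in the activating line with vehicle and 525, 477 and 693 with tamoxifen. Tamoxifen raised the row in both lines, by 1.51 in the activating line and by 0.69 in the neutral line, and its vehicle level was lower in the activating line. The tamoxifen groups of the lines overlapped, so that the difference of 0.82 (SE 0.19, DESeq2 adjusted p = 0.00351) came together with a lower starting level. HMGCS1 itself had 22 counts over the 12 libraries. In the repressive line the same row rose by 2.55.

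RP11-196G18.22 had no match in the annotation. The RP11-196G18.22 row held 199, 187 and 208 normalized counts in the neutral line with vehicle, 251, 197 and 181 with tamoxifen, 188, 171 and 213 in the activating line with vehicle and 299, 344 and 352 with tamoxifen. The activating tamoxifen libraries lay above all others. The difference was 0.72 (SE 0.21, DESeq2 adjusted p = 0.0284), with an activating effect of 0.80 and a neutral effect of 0.08.

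**Figure D2:**
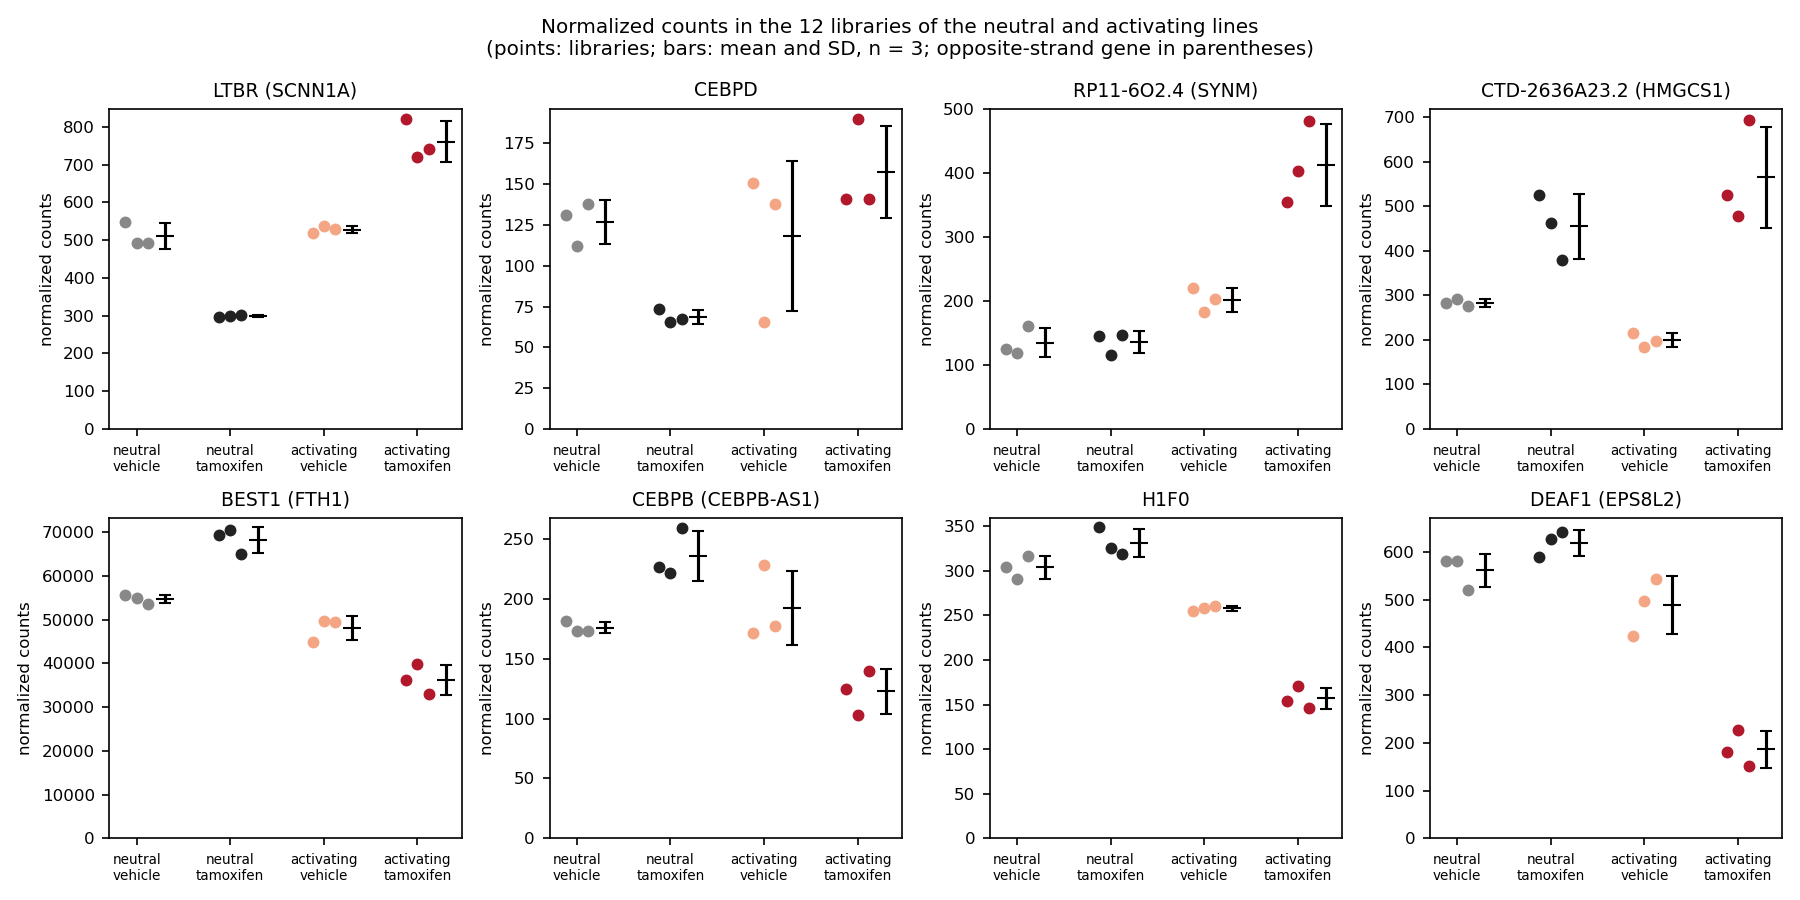
Normalized counts (vertical axes, from 0) in each of the 12 libraries for 8 called rows, by line and treatment (horizontal axes), with points for libraries and bars for the group mean and SD (n = 3). The LTBR panel shows tamoxifen libraries at 296 to 302 in the neutral line and at 719 to 822 in the activating line.

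The remaining 11 higher rows had smaller differences. YEATS2-AS1, opposite the chromatin reader YEATS2, had 0.67 (SE 0.21, DESeq2 adjusted p = 0.0474), from effects of 0.23 in the activating and -0.44 in the neutral line. MFSD11, which overlaps the splicing factor SRSF2, had 0.57 (SE 0.10, DESeq2 adjusted p = 2.08e-05), from effects of 0.37 in the activating and -0.20 in the neutral line. Its row held 1561, 1510.1 and 1809 normalized counts in the activating tamoxifen libraries and fewer in every other library of these lines. RP5-977B1.11 fell in both lines, by 0.95 on the log2 scale in the neutral and by 0.39 in the activating line, and had a difference of 0.56 (SE 0.15, DESeq2 adjusted p = 0.0139). CYFIP1, a component of the WAVE complex of actin regulators, had 0.56 (SE 0.16, DESeq2 adjusted p = 0.0257), from effects of 0.15 in the activating and -0.41 in the neutral line.

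SLC7A6OS, opposite the amino acid transporter SLC7A6, had 0.50 (SE 0.13, DESeq2 adjusted p = 0.00819), from effects of 0.51 in the activating and 0.01 in the neutral line. The SLC7A6 row had -0.26 (SE 0.12), which was not called. RP11-307C12.12, opposite the adaptor gene SHC1, had 0.45 (SE 0.12, DESeq2 adjusted p = 0.0151), from effects of 0.42 in the activating and -0.03 in the neutral line. GGCX, the vitamin K-dependent carboxylase, overlaps MAT2A, which makes S-adenosylmethionine, and had 0.40 (SE 0.12, DESeq2 adjusted p = 0.0257), from effects of -0.05 in the activating and -0.46 in the neutral line.

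AL136376.1 had 0.35 (SE 0.09, DESeq2 adjusted p = 0.00686), from effects of 0.70 in the activating and 0.35 in the neutral line, and rose in both.

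RP11-66B24.4 lies opposite ALDH1A3, an androgen-regulated retinaldehyde dehydrogenase, and had 0.35 (SE 0.10, DESeq2 adjusted p = 0.0407), from effects of 0.40 in the activating and 0.06 in the neutral line. The ALDH1A3 row had -0.14 (SE 0.36). TAF10, a subunit of TFIID, overlaps the integrin-linked kinase gene ILK and had 0.34 (SE 0.11, DESeq2 adjusted p = 0.0474), from effects of 0.40 in the activating and 0.06 in the neutral line. RP11-442H21.2 was the most abundant higher row, with a mean of 30728 normalized counts, and had 0.20 (SE 0.06, DESeq2 adjusted p = 0.0474), from effects of -0.09 in the activating and -0.29 in the neutral line. Among the partners of the 21 higher rows that passed the filter, none was called in the interaction. Most of these partner rows held few counts and had wide errors, with 0.52 (SE 0.84) at ZSWIM8, 1.44 (SE 1.13) at CASZ1, -0.34 (SE 1.19) at YEATS2, 0.39 (SE 0.83) at SRSF2, 0.20 (SE 0.66) at SHC1, -0.54 (SE 0.60) at MAT2A and -0.25 (SE 0.51) at ILK, none with an adjusted p.

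Lower rows included genes of the integrated stress response. CEBPB, a bZIP factor of this response (GRCh37 chr20:48807367-48809205, plus strand), overlaps exons of CEBPB-AS1. The CEBPB row held 181, 173 and 173 normalized counts in the neutral line with vehicle, 226, 221 and 259 with tamoxifen, 171, 228 and 177 in the activating line with vehicle and 125, 103 and 140.0 with tamoxifen. The activating tamoxifen libraries lay below all others and the neutral tamoxifen libraries above the neutral vehicle libraries. The difference was -1.07 (SE 0.22, DESeq2 adjusted p = 0.000229), with an activating effect of -0.65 and a neutral effect of 0.42 that was not called. CEBPB and CEBPD, members of 1 transcription factor family, were called in opposite directions.

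NUPR1, a small stress-induced chromatin-associated protein, had no opposite-strand partner. The NUPR1 row held 107, 129 and 143 normalized counts in the neutral line with vehicle, 143, 169 and 163 with tamoxifen, 133, 188 and 144 in the activating line with vehicle and 101, 104 and 62.6 with tamoxifen. The groups overlapped in the neutral line, and all 3 activating tamoxifen libraries lay below the activating vehicle libraries. The difference was -1.12 (SE 0.31, DESeq2 adjusted p = 0.0149), from effects of -0.80 in the activating and 0.32 in the neutral line. NUP62, a nuclear pore protein, overlaps ATF5, a stress-response transcription factor. The NUP62 row held 92.6, 79.4 and 106 normalized counts in the neutral line with vehicle, 150.3, 140.3 and 131 with tamoxifen, 92.0, 107 and 103 in the activating line with vehicle and 79.0, 65.1 and 58.0 with tamoxifen. The lines moved in opposite directions, with effects of -0.58 in the activating and 0.60 in the neutral line, both past the threshold. The difference was -1.18 (SE 0.28, DESeq2 adjusted p = 0.00289), and the ATF5 row averaged 6.54 normalized counts, with -0.42 (SE 1.11) and no adjusted p.

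Of 26 integrated stress response genes listed, 17 were tested in their own row. An adjusted p was given to 5 of the 17, and to 1419 of all 5816 rows. The interaction was called lower at 2 (CEBPB and NUPR1) and higher at 0, beside 0.258% of all rows called lower. Of these 2 genes CEBPB was also called by edgeR and by limma-voom, whereas NUPR1 was called by neither, with an adjusted p of 0.0878 by edgeR and 0.0769 by limma-voom. The median was -0.65 over the 17, beside -0.01 over all rows tested. In the activating line 0 of 17 had a tamoxifen effect above 0, with a median of -0.57, and in the neutral line the median was 0.11. The fall was not particular to the activating line. In the repressive line 2 of 17 lay above 0, the median was -1.19, and 10 were called lower and 0 higher. TRIB3, a pseudokinase induced by ATF4 and DDIT3, had -1.50 (SE 0.59) and DDIT3 had -1.70 (SE 0.65), both without an adjusted p. SLC7A5, DDIT4 and SLC3A2, with higher counts, had 0.04, -0.21 and -0.34, none of them called. In the 6 rows opposite the listed genes the median was -0.25, with the NUP62 row called lower.

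The most abundant of the called rows was BEST1. It encodes bestrophin 1, a chloride channel of retinal epithelium, and overlaps FTH1, the ferritin heavy chain that stores iron. The BEST1 row held a mean of 51864 normalized counts and the FTH1 row 247. Which of these 2 genes the counts come from was not tested. The BEST1 row had 55580.2, 55035 and 53632 normalized counts in the neutral line with vehicle and 69469.7, 70590.1 and 64958 with tamoxifen. In the activating line it had 44906, 49675 and 49591 with vehicle and 36195, 39789 and 32947 with tamoxifen. The neutral line moved up and the activating line moved down, without overlap between groups. The difference was -0.72 (SE 0.11, DESeq2 adjusted p = 3.66e-08), and the effects were -0.40 in the activating and 0.32 in the neutral line.

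The FTH1 row held 181, 275 and 262 normalized counts in the neutral line with vehicle, 329.5, 342 and 307 with tamoxifen, 223, 236 and 274 in the activating line with vehicle and 184, 172 and 179.7 with tamoxifen. The direction was that of the BEST1 row, and the activating tamoxifen libraries were below the activating vehicle libraries. The FTH1 difference was -0.89 (SE 0.22, DESeq2 adjusted p = 0.00644), from effects of -0.45 in the activating and 0.44 in the neutral line. CTD-2139B15.2, which lies opposite the ferritin pseudogene FTH1P10, had a difference of -0.62 (SE 0.14, DESeq2 adjusted p = 0.00171), from effects of -0.36 in the activating and 0.26 in the neutral line. These 3 rows share sequence or exons and are not independent measurements. In the repressive line BEST1 rose by 1.10, FTH1 by 0.92 and CTD-2139B15.2 by 0.98.

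DEAF1, a transcription factor, overlaps EPS8L2, an actin regulator, over 2.99% of its exonic bases. The DEAF1 row held 582, 582 and 521 normalized counts in the neutral line with vehicle, 589, 627 and 641 with tamoxifen, 423, 497 and 544 in the activating line with vehicle and 180.4, 228 and 152 with tamoxifen. All 3 activating tamoxifen libraries lay far below every other library of the neutral and activating lines, and the neutral effect of 0.14 was not called. The difference was -1.53 (SE 0.29, DESeq2 adjusted p = 5.07e-05) and the activating effect was -1.39. In the repressive line the DEAF1 row held 195, 371 and 349 normalized counts with vehicle and 277, 267 and 328 with tamoxifen. EPS8L2 itself had 0.01 (SE 0.38). RP5-955M13.4 lies opposite KCNG1, a modifier subunit of potassium channels. The RP5-955M13.4 row held 126, 99.5 and 82.8 normalized counts in the neutral line with vehicle, 78.0, 134 and 115 with tamoxifen, 119.6, 100.4 and 120.4 in the activating line with vehicle and 34.5, 63.3 and 24.0 with tamoxifen. Its activating tamoxifen libraries were the lowest of the neutral and activating lines. Its difference was -1.57 (SE 0.40, DESeq2 adjusted p = 0.00686), from effects of -1.48 in the activating and 0.09 in the neutral line.

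H1F0 encodes a linker histone that accumulates in quiescent and differentiated cells, and it is the only lower row beside NUPR1 with no opposite-strand partner. The H1F0 row held 304, 291 and 316 normalized counts in the neutral line with vehicle, 349, 325 and 318 with tamoxifen, 255, 258 and 261 in the activating line with vehicle and 154, 170.3 and 146 with tamoxifen. The activating vehicle libraries were below the neutral vehicle libraries, a difference that was not called, and the activating tamoxifen libraries were the lowest of all. The difference was -0.84 (SE 0.17, DESeq2 adjusted p = 0.000229), with an activating effect of -0.72 and a neutral effect of 0.12.

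RP11-498C9.13 lies opposite PYCR1, the last enzyme of proline synthesis, and all of its exonic bases overlap PYCR1. The RP11-498C9.13 row held 424, 366 and 367 normalized counts in the neutral line with vehicle, 382, 343 and 351 with tamoxifen, 348, 319.6 and 340.4 in the activating line with vehicle and 187, 243 and 132 with tamoxifen. All 3 activating tamoxifen libraries lay below every other library of the neutral and activating lines. The difference was -0.74 (SE 0.20, DESeq2 adjusted p = 0.0139), from effects of -0.84 in the activating and -0.11 in the neutral line. PYCR1 itself had 67 counts over the 12 libraries, with 10.1, 13.5 and 9.05 normalized counts in the activating line with vehicle, 0 in all 3 activating tamoxifen libraries and no adjusted p.

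RP11-4K16.2, opposite MAL2, a membrane protein of transcytosis, was lower in the activating tamoxifen libraries. The RP11-4K16.2 row held 189, 158 and 181 normalized counts in the neutral line with vehicle, 213, 199.7 and 157 with tamoxifen, 251, 245 and 183 in the activating line with vehicle and 138, 132 and 134 with tamoxifen. Its difference was -0.86 (SE 0.22, DESeq2 adjusted p = 0.00889), from effects of -0.75 in the activating and 0.11 in the neutral line. ENSG00000270228, a processed pseudogene opposite the noncoding gene UBA6-DT, was also called lower. Its row held 155, 127 and 139.9 normalized counts in the neutral line with vehicle, 129, 158 and 169 with tamoxifen, 170.2, 137 and 164 in the activating line with vehicle and 70.9, 105 and 74.6 with tamoxifen. The activating tamoxifen libraries were the lowest of the neutral and activating lines. The difference was -1.02 (SE 0.28, DESeq2 adjusted p = 0.0172), from effects of -0.91 in the activating and 0.11 in the neutral line.

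Of the remaining lower rows, KRT17, a keratin of basal and activated epithelium, had 574, 758 and 873 normalized counts with vehicle in the neutral line, 838, 808 and 866 with tamoxifen, 725, 657 and 748 with vehicle in the activating line and 524, 456 and 519.6 with tamoxifen. The activating tamoxifen libraries stood below all the others, and the difference was -0.69 (SE 0.18, DESeq2 adjusted p = 0.00686), from effects of -0.51 in the activating and 0.19 in the neutral line. CTB-79E8.2, opposite NEURL1B, a ubiquitin ligase for Notch ligands, had -0.69 (SE 0.19, DESeq2 adjusted p = 0.0176), from effects of -0.63 in the activating and 0.06 in the neutral line. XXbac-BPG248L24.12, opposite the antigen-presenting molecule HLA-B, had -0.40 (SE 0.11, DESeq2 adjusted p = 0.0148), from effects of -0.22 in the activating and 0.18 in the neutral line. The own rows of NEURL1B, HLA-B and MAL2 had -0.67 (SE 0.73), -0.11 (SE 0.50) and -0.05 (SE 0.76), with no adjusted p. The repressive-line effect of XXbac-BPG248L24.12 was 1.73.

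Tamoxifen changed 163 rows in the activating line (2.8% of the rows tested), 78 higher (1.34%) and 85 lower (1.46%). In the neutral line it changed 45 (0.774%), 19 higher (0.327%) and 26 lower (0.447%). With tamoxifen the lines differed at 180 rows (3.09%) and with vehicle at 47 (0.808%). Of the 36 called rows, 28 were called in the activating line, 11 in the neutral line, 29 between the tamoxifen groups and 6 between the vehicle groups. These comparisons share libraries with the interaction, so the counts describe the called rows and do not test them.

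The effects had opposite signs at 24 of the 36 rows, and the activating effect was the larger in size at 25. A row called for a difference is more likely to show opposite signs, so this is a description. Among the 21 higher rows, 2 rose in both lines (CTD-2636A23.2 and AL136376.1), LTBR rose in the activating and fell in the neutral line, and 8 rose in the activating line with no call in the neutral line. AC016773.1 rose in the activating line and had no adjusted p in the neutral line, RP5-977B1.11 fell in both lines, and SLC46A1, ZSWIM8-AS1 and YEATS2-AS1 were called in neither. CEBPD, RP4-734G22.3, CYFIP1, GGCX and RP11-442H21.2 fell in the neutral line with no call in the activating line. Among the 15 lower rows, BEST1 and NUP62 fell in the activating and rose in the neutral line, and 13 fell in the activating line with no call in the neutral line.

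Tamoxifen and vehicle libraries did not overlap at 30 of the 36 rows in the activating line, compared with 16.02% of all rows tested. In the neutral line this held at 20 rows, compared with 13.3% of all rows. The tamoxifen groups of the 2 lines did not overlap at 31 rows (18.1% of all rows), and the vehicle groups at 13 rows (13.1%). The 36 rows were selected on these same libraries, so groups that lie apart more often follow from the selection. These shares are a description and not a test. The 6 rows at which the vehicle groups were called apart were RP11-6O2.4, CTD-2636A23.2, RP5-977B1.11, CYFIP1, AL136376.1 and RP11-442H21.2, all among the higher rows. At these rows the difference of effects and the difference at baseline occurred together, and their parts were not told apart. Only 517 rows received an adjusted p in the vehicle comparison, so a baseline difference could go uncalled at others. AC016773.1 (0.77, SE 0.32), SLC46A1 (-0.62, SE 0.22) and ZSWIM8-AS1 (-0.64, SE 0.23) were among the rows without one.

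**Figure D3:**
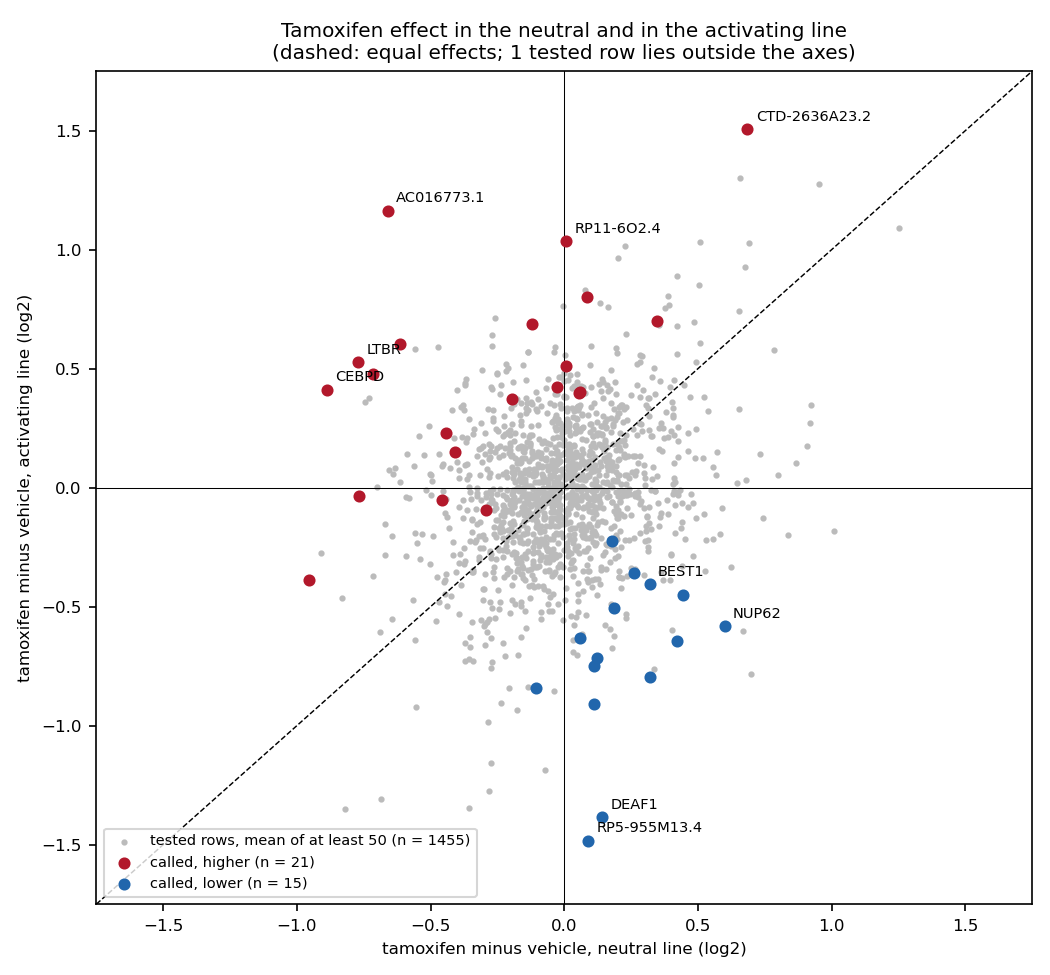
Log2 tamoxifen effect in the neutral line (horizontal axis) and in the activating line (vertical axis) for tested rows with a mean of at least 50 normalized counts, with the 36 called rows marked and the line of equal effects drawn. LTBR lies at -0.77 and 0.53, and DEAF1 at 0.14 and -1.39.

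The repressive line gave a further, separate reading of the same rows with the KRAB construct. Its tamoxifen effect was called at 561 rows (9.65%), 327 higher (5.62%) and 234 lower (4.02%). Of the 21 rows with a higher interaction, 8 were higher in the repressive line, 6 were lower and 7 were not called. The 6 lower rows were AC016773.1, CEBPD, LTBR, GGCX, RP11-66B24.4 and RP11-442H21.2, with a median effect of -1.46, and the LTBR effect was -2.73. The 8 higher rows, among them CTD-2636A23.2, SLC7A6OS and MFSD11, had a median effect of 0.65.

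Of the 15 rows with a lower interaction, 5 were higher in the repressive line (XXbac-BPG248L24.12, CTD-2139B15.2, KRT17, BEST1 and FTH1, median 0.98), 4 were lower (median -1.25) and 6 were not called. NUPR1 had an effect of -1.15 and RP5-955M13.4 of -1.62, both below 0 as in the activating line. DEAF1 and CEBPB had effects of -0.07 and 0.00, which were not called.

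**Figure D4:**
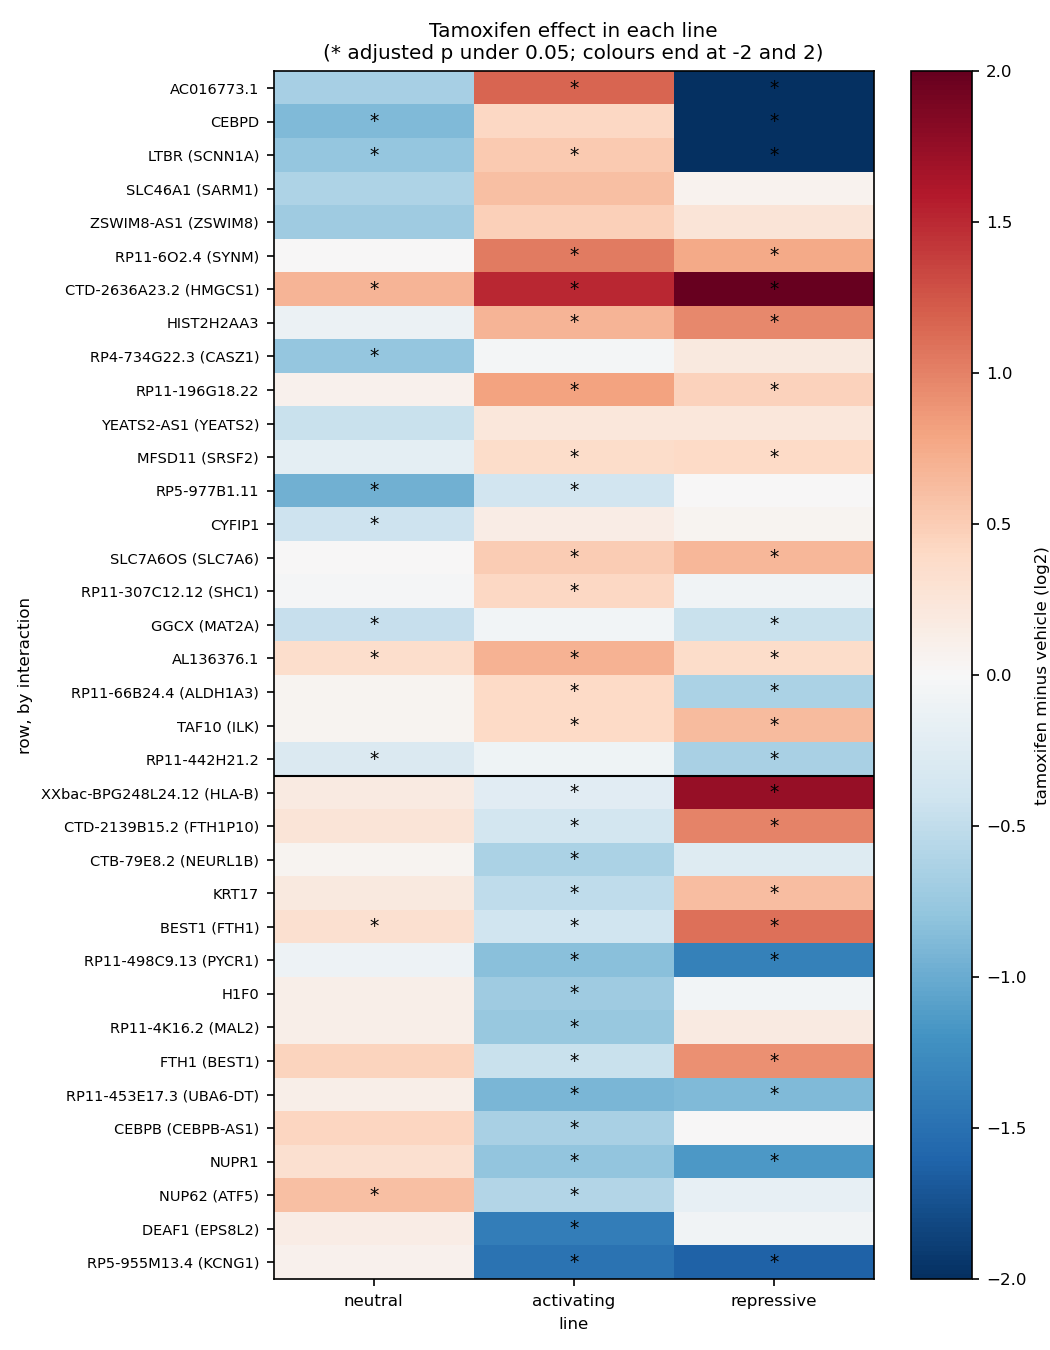
Log2 tamoxifen effect (colour scale) in the neutral, activating and repressive lines (columns) for the 36 called rows (ordered by the interaction), with stars at an adjusted p under 0.05 and colours that end at -2 and 2. The lowest repressive values are those of LTBR at -2.73 and AC016773.1 at -2.33.

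Gene lists of 18 kinds were examined beside the called rows, by counts and medians. They were chosen with results of these data known and were not tested as sets. Beside each list stand all rows tested, of which 0.361% were called higher and 0.258% lower, with a median of -0.01. Of 25 glucocorticoid receptor targets 15 were tested in their own row, with CEBPD called higher, CEBPB lower and a median of 0.66. Only 3 of the 15 received an adjusted p, so the median rests mostly on rows that could not be called. KLF9, a glucocorticoid-induced zinc-finger factor, rose in the activating line by 0.89, with a difference of 0.66 (SE 0.44). TSC22D3, MT2A and GLUL had differences of -0.33, 0.79 and 0.68, none with an adjusted p. LTBR was among the called rows opposite these genes.

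Of 25 androgen receptor targets 9 were tested and the median was -0.14. In the interaction DESeq2 called 0 (2 at an unadjusted p under 0.05), and edgeR and limma-voom also called 0. HERC3 fell in the activating line by 0.23, with a difference of -0.08 (SE 0.11). NDRG1, a differentiation-related gene, had -0.38 (SE 0.34), PPAP2A 0.54 (SE 0.26) and ALDH1A3 -0.14 (SE 0.36). Of the fixed targets, KLK3 had 0 counts and TMPRSS2 had 2 counts over the 12 libraries, below the filter. A change in these genes was not detectable at these counts, and the cause of the low counts was not tested.

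Cholesterol synthesis genes were read mainly in opposite-strand rows. The median of the 12 own rows tested was 0.16. DESeq2 called 0 of them in the interaction, 1 had an unadjusted p under 0.05, and edgeR and limma-voom also called 0. Members with more counts and no call were ACAT2 (0.55, SE 0.34), MVK (-0.45, SE 0.63) and SREBF2 (-0.13, SE 0.56). Of 7 opposite rows, all lay above 0, with a median of 0.47, and 1 was called in the interaction, CTD-2636A23.2 opposite HMGCS1. Tamoxifen raised 4 of the 7 in the activating line, beside 1.34% of all rows, and 2 in the neutral line, beside 0.327%. The 4 were CTD-2636A23.2, IDI2-AS1 opposite IDI1 (0.89), RUSC1-AS1 opposite FDPS (0.93) and TCP1 opposite ACAT2 (1.03). The rise was not particular to the activating line. In the repressive line 4 of the 7 were called higher, beside 5.62% of all rows. All 7 effects lay above 0 in every line, with medians of 1.03 in the activating, 0.68 in the neutral and 1.07 in the repressive line.

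Of 26 basal cell genes 21 were tested, 9 of them with an adjusted p, and KRT17 was called lower, with a median of -0.12. The keratins KRT5 and KRT14 had differences of -0.16 (SE 0.16) and -0.02 (SE 0.19), neither of them called. KRT14 rose in both lines and KRT5 in the neutral line. ITGB4, the hemidesmosome integrin, rose in the neutral line by 0.92 and had a difference of -0.65 (SE 0.32) that was not called. By counts, the leading uncalled members were COL17A1 (-0.50, SE 0.25), KRT6A (0.51, SE 0.31), TRIM29 (0.40, SE 0.38) and EGFR (-0.08, SE 0.40).

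The 7 luminal genes tested had a median of -0.07. In the interaction DESeq2 called 0 (1 at an unadjusted p under 0.05), and edgeR and limma-voom also called 0. KRT8, which overlaps KRT18, fell in the activating line by 0.33 and had a difference of -0.07 (SE 0.12). Members with more counts and no call were KRT7 (-0.36, SE 0.28), KRT18 (0.03, SE 0.58), PSCA (1.42, SE 0.68) and KRT19 (-0.06, SE 0.71). The 8 squamous differentiation genes tested had a median of -0.61. DESeq2 called 0 of them in the interaction, 1 had an unadjusted p under 0.05, and edgeR and limma-voom also called 0. KRT16, a keratin of activated keratinocytes, had -0.999 (SE 0.36, DESeq2 adjusted p = 0.126). PPL, S100A9 and LY6D had -0.67 (SE 0.36), 0.39 (SE 0.74) and 0.15 (SE 0.62).

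In the TNF and NF-kB list LTBR was the only call among 10 rows tested, with a median of 0.01, and only 1 of the 10 received an adjusted p. Members with more counts and no call were SOD2 (-0.09, SE 0.42), NFKBIA (-0.68, SE 0.70), TNFRSF1A (0.11, SE 0.81) and RELA (0.73, SE 1.00). The 10 NOTCH pathway genes tested had a median of -0.15. In the interaction DESeq2 called 0 (0 at an unadjusted p under 0.05), and edgeR and limma-voom also called 0. NOTCH1, a receptor of the pathway, fell in the activating line by 1.35 on the log2 scale, with a difference of -0.53 (SE 0.44). By counts, the leading uncalled members were NOTCH3 (-0.89, SE 0.47), HES4 (-0.32, SE 0.52), MAML1 (-0.66, SE 0.54) and JAG2 (0.31, SE 0.55). Of 10 oxidative stress and iron genes tested, 2 received an adjusted p and FTH1 was called lower, with a median of 0.26. The autophagy receptor SQSTM1 had 0.24 (SE 0.17). FTL, PRDX1 and GCLC had -0.83 (SE 0.60), 0.28 (SE 0.73) and 0.80 (SE 0.78).

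The 23 interferon genes tested had a median of -0.20. DESeq2 called 0 of them in the interaction, 1 had an unadjusted p under 0.05, and edgeR and limma-voom also called 0. By counts, the leading uncalled members were HLA-C (-0.17, SE 0.35), IRF1 (-0.56, SE 0.42) and TAP1 (0.33, SE 0.45). The 19 cell cycle genes (S and G2/M) had a median of 0.17. In the interaction DESeq2 called 0 (2 at an unadjusted p under 0.05), and edgeR called 1 and limma-voom 0. By counts, the leading uncalled members were HMGB2 (-0.53, SE 0.36), MKI67 (0.34, SE 0.52), CCNE2 (0.17, SE 0.47) and TUBB4B (0.57, SE 0.51). The 15 growth and nucleolar genes had a median of 0.28. DESeq2 called 0 of them in the interaction, 1 had an unadjusted p under 0.05, and edgeR and limma-voom also called 0. Members with more counts and no call were RPL3 (0.28, SE 0.25), RPS6 (0.48, SE 0.34), BOP1 (-0.15, SE 0.38) and NCL (0.56, SE 0.38). The 10 p53 and cell death genes had a median of -0.32. In the interaction DESeq2 called 0 (1 at an unadjusted p under 0.05), and edgeR and limma-voom also called 0. Members with more counts and no call were BID (-0.22, SE 0.35), PHLDA3 (-1.25, SE 0.74), FAS (-0.66, SE 0.76) and MCL1 (-0.41, SE 0.75). The nucleolar protein NOP16 rose in the activating line by 0.28, with a difference of 0.15 (SE 0.14). The mesenchymal gene VIM had -0.09 (SE 0.29), and VIM-AS1 opposite it rose in the activating line by 0.18.

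Further rows opposite listed genes were called in 1 of the lines or both. C5orf45 opposite SQSTM1 fell in the activating line by 0.30 and RP11-706C16.8 opposite LY6D by 1.31. RP11-611O2.5 opposite MDM2, which restrains p53, fell in both lines, by 0.55 in the activating and by 0.64 in the neutral line. ANKS1B opposite APAF1 fell in the neutral line by 0.70. None of these 4 rows was called in the interaction by DESeq2.

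**Figure D5:**
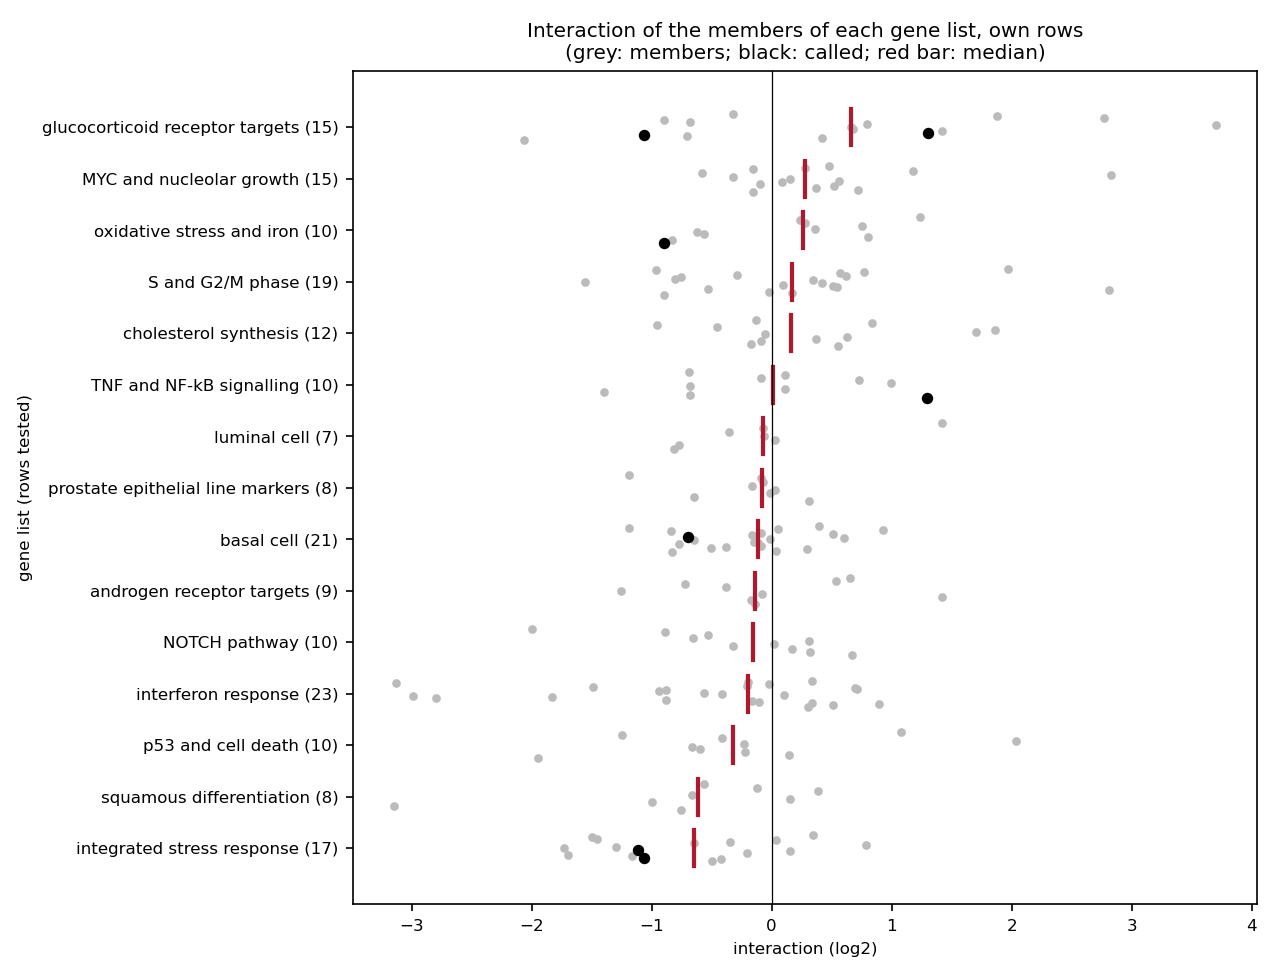
Log2 interaction (horizontal axis) of the tested members of each gene list (vertical axis), with a grey point for each member, black where called, and a red bar at the median, for lists with at least 3 rows tested. The medians run from -0.65 for the integrated stress response to 0.66 for glucocorticoid receptor targets.

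Of the fixed list, KRT18 had 0.03 (SE 0.58) and TP63, the transcription factor of basal identity, -1.19 (SE 0.78), both without an adjusted p. The glucocorticoid-related genes NR3C1, PER1, SGK1 and ZBTB16 had 52, 148, 6 and 60 counts over the 12 libraries. ESR1, the receptor gene from which ERT2 derives, had 513 counts over the 12 libraries. ESR1 counts lay at 43 to 65 in the neutral vehicle, 27 to 64 in the neutral tamoxifen, 28 to 42 in the activating vehicle and 36 to 38 in the activating tamoxifen libraries. The neutral vehicle counts lay above those of both activating groups, and the ESR1 difference was 0.55 (SE 0.48). Whether these counts come from the construct or the endogenous gene was not tested. ZNF10, a gene with a KRAB domain, had 0 counts in all 12 libraries.

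Just inside the threshold were RP11-196G18.22 with an adjusted p of 0.0284, RP11-66B24.4 with 0.0407, and YEATS2-AS1, TAF10 and RP11-442H21.2, each with 0.0474 by DESeq2. Just outside were AC009133.15 with 0.0593, SPHK2 with 0.0622, and CD3EAP, AC104841.2 and HOXA9, each with 0.0635. 

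Of the 36 called rows, 12 were also called by edgeR and by limma-voom and in all 12 fits that left out 1 library, namely CEBPD, LTBR, RP11-6O2.4, RP4-734G22.3, MFSD11, CTD-2139B15.2, KRT17, BEST1, H1F0, CEBPB, NUP62 and DEAF1. The call was lost in at least 1 of the 12 fits at the other rows named here, each with the highest DESeq2 adjusted p and the library left out. Without activating tamoxifen replicate 3 the adjusted p was highest at ZSWIM8-AS1 (0.143, lost in 4), HIST2H2AA3 (0.0994, lost in 4), CTB-79E8.2 (0.126, lost in 4), RP11-498C9.13 (0.113, lost in 4) and RP5-955M13.4 (0.0693, lost in 2). Without activating vehicle replicate 2 the adjusted p was highest at RP11-196G18.22 (0.215, lost in 8), RP11-307C12.12 (0.112, lost in 8), RP11-66B24.4 (0.215, lost in 7), TAF10 (0.215, lost in 9), XXbac-BPG248L24.12 (0.156, lost in 6), RP11-4K16.2 (0.0915, lost in 3) and NUPR1 (0.195, lost in 4). Without activating tamoxifen replicate 1 the adjusted p was highest at YEATS2-AS1 (0.198, lost in 9), AL136376.1 (0.0587, lost in 2), RP11-442H21.2 (0.198, lost in 10) and ENSG00000270228 (0.135, lost in 7). Without activating vehicle replicate 1 the adjusted p was highest at RP5-977B1.11 (0.0692, lost in 3). Without neutral vehicle replicate 1 the adjusted p was highest at CYFIP1 (0.173, lost in 9). Without activating vehicle replicate 3 the adjusted p was highest at SLC7A6OS (0.0675, lost in 1). Without activating tamoxifen replicate 2 the adjusted p was highest at GGCX (0.146, lost in 7). The other 4 rows kept the call wherever a fit without 1 library gave an adjusted p, and AC016773.1 had none without neutral vehicle replicate 2. SLC46A1 was not called by edgeR (adjusted p = 0.0778), by limma-voom (0.0781) or with a replicate block within each line. FTH1 and CTD-2636A23.2 were not called by limma-voom, with an adjusted p of 0.0726 and 0.075. Without activating tamoxifen replicate 3 the number of calls was 23. Only 1 row without an opposite-strand overlap, H1F0, was called when such rows were tested alone.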

How the data were processed

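The RNA-seq libraries were made with a stranded mRNA kit. The authors processed them with the nf-core/rnaseq workflow, per the study's methods, against GRCh37 with salmon (1.9.0) for tests in DESeq2 (1.28.0), per the submitters' processing notes. The deposited table holds expected counts, estimated reads per gene with no scaling for depth or length. Of its values 1.10% were not whole, and all were rounded. Columns were mapped by their names to the labels, and 0 were left unmapped. Symbols are those of the table.

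Of 57773 rows, 20175 had a count, and the 5816 with at least 10 counts in at least 3 of 18 libraries were tested (97.6% of counts). Of these, 96.9% were matched by Ensembl identifier to the GRCh37 annotation. A model with 1 mean per group was fitted to all 18 libraries in DESeq2 (1.42.0, R 4.3.3), with size factors from the median of ratios and the Wald test. Independent filtering was applied, and the Benjamini-Hochberg adjustment covered the rows that passed it. Rows with an adjusted p under 0.05 are called. An adjusted p was given to 1419 rows in the interaction. Alternatives used edgeR (4.0.16), limma-voom (limma 3.58.1), other filters and scalings, a replicate block and fits without 1 library. The fitting steps were tested on simulated data.

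Every called row is named with its difference, and values in every library are given for up to 10 called rows in each direction with the largest differences and a mean of at least 50 normalized counts. Opposite-strand partners, list members that were called, up to 4 other members per list by mean count, a fixed list and the rows nearest to the threshold were also named. The members and gene lists were chosen with earlier results of these data known. The motif search took the reference genome of the same build, with positions relative to the annotated starts. Some genes of the lists and 1 partner are not reported here.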

Additional observations from a re-analysis of the deposited data

Results flagged for a closer look

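The tamoxifen effects of the activating and neutral lines differed, by the DESeq2 interaction test, at each of the 36 called rows, which are listed here with their log2 difference (activating minus neutral). Higher differences were 1.82 at AC016773.1, 1.30 at CEBPD, 1.30 at LTBR, 1.22 at SLC46A1, 1.20 at ZSWIM8-AS1, 1.03 at RP11-6O2.4, 0.82 at CTD-2636A23.2, 0.81 at HIST2H2AA3, 0.73 at RP4-734G22.3, 0.72 at RP11-196G18.22 and 0.67 at YEATS2-AS1. They were 0.57 at MFSD11, 0.56 at RP5-977B1.11, 0.56 at CYFIP1, 0.50 at SLC7A6OS, 0.45 at RP11-307C12.12, 0.40 at GGCX, 0.35 at AL136376.1, 0.35 at RP11-66B24.4, 0.34 at TAF10 and 0.20 at RP11-442H21.2. Lower differences were -0.40 at XXbac-BPG248L24.12, -0.62 at CTD-2139B15.2, -0.69 at CTB-79E8.2, -0.69 at KRT17, -0.72 at BEST1, -0.74 at RP11-498C9.13 and -0.84 at H1F0. The largest falls were -0.86 at RP11-4K16.2, -0.89 at FTH1, -1.02 at ENSG00000270228, -1.07 at CEBPB, -1.12 at NUPR1, -1.18 at NUP62, -1.53 at DEAF1 and -1.57 at RP5-955M13.4. No group held 4 or more samples, so single libraries that stood apart could not be tested for by Dixon's criterion.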

How the results depend on the processing

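The interaction gave 36 calls in the fit reported. With edgeR 17 rows were called (16 of them among the 36, 47.1% higher), with limma-voom 19, without independent filtering 22, with an absolute log2 difference above 1 required 12, and among rows with no opposite-strand overlap 1. Leaving out 1 library at a time gave 23 to 38 calls, and only the omission of activating tamoxifen replicate 3 (23) moved the count by more than 1.5 times. The activating effect (163 calls) gave 102 with edgeR, 8 among rows with no overlap, 21 above an absolute log2 of 1, and 94 to 156 without 1 library, with 94 without activating tamoxifen replicate 3 and 94 without activating vehicle replicate 2. The neutral effect (45) gave 22 with edgeR, 18 with limma-voom, 26 without independent filtering, 1 among rows with no overlap, 2 above 1, and 25 to 50 without 1 library, with 25 without neutral tamoxifen replicate 3 and 27 without neutral tamoxifen replicate 1. The comparison with tamoxifen (180) gave 117 with limma-voom, 11 among rows with no overlap, 26 above 1 and 121 to 177 without 1 library. The comparison with vehicle (47) gave 4 with edgeR, 7 with limma-voom, 8 without independent filtering, 29 with total-count scaling (41.4% higher, beside 7 of 47 in the fit reported), 0 above 1 (of 413 at an unadjusted p under 0.05) and 2 to 53 without 1 library, with 2 without activating vehicle replicate 3 and 16 without neutral vehicle replicate 1 or 2. Among rows with no overlap DESeq2 called 0 at an adjusted p under 0.05 and 96 at an unadjusted p under 0.05, where edgeR over all rows gave 407 and limma-voom 411. The cause of these changes was not tested, except that fewer rows or samples entered where rows or libraries were left out. In rows opposite the listed genes the medians were -0.25 for the integrated stress response (6 rows), 1.50 for TNF and NF-kB genes (2 rows) and 0.13 for mesenchymal markers (2 rows). The motif share of called rows was 3.23% within 2 kb and 90.3% within 50 kb, beside 4.59% and 71.1% of all tested rows.

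Same-numbered replicates correlated at -0.093, -0.302 and -0.057 in the neutral line and at 0.116, 0.138 and 0.048 in the activating line, so the numbers were not taken to pair the samples. In the activating line each sample correlated best with its own number. With a replicate block the interaction gave 34 calls, the activating effect 134, the neutral effect 39, the comparison with tamoxifen 166 and that with vehicle 43. With the block within each line the interaction gave 24 and the activating effect 101. At the depth of 680601 to 770000 counts, low-count rows have wide errors, as the SE of 1.09 at SCNN1A shows.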

Other observations

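Some rows with large differences received no adjusted p because of low counts, and they were chosen after their values were seen. MT1X, a metallothionein, had a log2 difference of 3.70 (SE 1.07). STC2, a secreted glycoprotein induced by the stress response, had -1.45 (SE 0.57), with 34.0, 38.6 and 36.2 normalized counts in the activating line with vehicle and 14.2, 15.8 and 14.7 with tamoxifen. FEN1, a flap endonuclease of DNA replication, had 2.81 (SE 0.69), with 8.28, 10.6 and 2.72 normalized counts in the activating line with vehicle and 30.4, 26.1 and 31.3 with tamoxifen. PSCA, a prostate stem cell antigen, had 1.42 (SE 0.68), with 35.5, 40.0 and 32.2 normalized counts in the activating tamoxifen libraries.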
